A study of Homo sapiens with 15 samples.

Results

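The RNA of 8 genes recurrently inactivated or mutated in cholangiocarcinoma (CCA), a cancer of the bile duct epithelium, was followed in tumors grown from 3 human CCA cell lines. They are CDKN2A, CDKN2B, SMAD4, ARID1A, PBRM1, BAP1, IDH1 and IDH2. They were chosen by symbol, and each matched 1 of the 58735 gene identifiers in the count table. Sequencing covered 15 xenografts derived from these lines (CDX models), 5 each of the HuCC-A1, HuCC-T1 and EGI-1 models. HuCC-A1 and HuCC-T1 are intrahepatic CCA lines, and EGI-1 is an extrahepatic one. Tumors grew in NRG mice, immunodeficient non-obese diabetic animals that lack Rag1 and the IL2 receptor gamma chain. All 15 tumors came from mice that had received vehicle (PBS, injected intraperitoneally every week), over 6 weeks for HuCC-A1 and 4 weeks for EGI-1. No duration is given for HuCC-T1. The study set HuCC-A1, as a high responder to an antibody against claudin-1, against EGI-1, as a low responder, and that comparison asks what distinguishes the untreated tumors. Each model is 1 cell line, so p-values reflect only how tumors of 1 line vary, and origin, line and duration cannot be told apart.

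CDKN2A encodes p16INK4a, which binds the kinases CDK4 and CDK6 and keeps the retinoblastoma protein active, and, from another first exon and reading frame, p14ARF, which holds back the p53 ligase MDM2. CDKN2B, its neighbor on chromosome arm 9p, encodes the related CDK4/6 inhibitor p15INK4b. SMAD4 carries TGF-beta and BMP signals into the nucleus. In the nucleus too, ARID1A and PBRM1 are subunits of different SWI/SNF complexes, which move nucleosomes, and BAP1 removes ubiquitin from histone H2A. IDH1 and IDH2 make 2-oxoglutarate from isocitrate in the cytosol and in mitochondria, and hot-spot mutations in them, known from intrahepatic CCA, make the enzymes produce 2-hydroxyglutarate instead. RNA levels say nothing about such point mutations, which were not examined here.

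Total counts ranged from 20001412 to 33585265 in HuCC-A1, from 26163778 to 33984103 in HuCC-T1 and from 34239460 to 44067878 in EGI-1 tumors. Mitochondrial genes held 4.50% to 11.3% of counts in HuCC-A1, 5.97% to 8.36% in HuCC-T1 and 3.94% to 5.64% in EGI-1 tumors. The highest share was that of HuCC-A1 tumor 1, beside 4.50% to 6.74% in the other HuCC-A1 tumors. Levels are given as CPM (each gene's share of the library total, scaled up), with totals scaled by TMM, a normalization for library composition. Genes were tested with edgeR in 1 fit of all 15 tumors and called where the p adjusted over 21019 genes (Benjamini-Hochberg) was under 0.05. All 8 biliary and simple-epithelial markers were detected in every tumor. Their summed level was 6021 to 8294 CPM in HuCC-A1, 6803 to 18464 CPM in HuCC-T1 and 15299 to 26560 CPM in EGI-1 tumors. KRT19 (2830, 4870 and 8951 CPM) and KRT8 (1085, 1969 and 6614 CPM) followed that order, and EPCAM, KRT18 and CDH1 were also highest in EGI-1 tumors. KRT7 went the other way (1059, 2109 and 55.2 CPM). CLDN4 was highest in HuCC-A1 (698, 149 and 456 CPM), and SOX9 had 43.0, 138 and 133 CPM. The summed level of 10 fibroblast markers was 427 to 951 CPM in HuCC-A1, 105 to 522 CPM in HuCC-T1 and 75.1 to 128 CPM in EGI-1 tumors. In HuCC-A1 most of that sum was COL3A1 (638 CPM, against 8.57 CPM in HuCC-T1 and 9.28 CPM in EGI-1 tumors), whereas COL1A1 had 17.5, 375 and 84.5 CPM in the same order, and COL1A2, FAP, ACTA2 and PDGFRA also averaged more in HuCC-T1 than in HuCC-A1 tumors. The 6 hepatocyte markers summed to 349 to 628 CPM in HuCC-A1, 238 to 430 CPM in HuCC-T1 and 124 to 194 CPM in EGI-1 tumors. Nearly all of it was SERPINA1 (515, 346 and 159 CPM), and the albumin gene ALB had 14, 3 and 25 counts over the HuCC-A1, HuCC-T1 and EGI-1 tumors. The 8 endothelial markers summed to between 24.2 and 51.8 CPM in any tumor, and the 8 leukocyte markers to between 15.3 and 54.8 CPM. The leukocyte markers differed among themselves, with 596, 1905 and 3135 counts of LYZ, 1215, 1732 and 3227 of CD14, 2663, 267 and 20 of ITGAM and 7, 0 and 0 of TYROBP over HuCC-A1, HuCC-T1 and EGI-1 tumors. The tumors were human lines grown in mice, so fibroblasts, endothelium, leukocytes and hepatocytes of the host are mouse cells. Whether mouse reads were removed is not given. Counts of these markers can come from the human line or from mouse reads aligned to the human genome, and their source was not tested. The part of host cells in the results below was not tested either. In a bulk tumor, fewer cells of a type and less RNA per cell cannot be told apart.

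RNA of CDKN2A and CDKN2B was present in HuCC-T1 tumors and absent, or nearly so, from the others. CDKN2A (ENSG00000147889, chromosome 9, 21967753 to 21995301, GRCh38) and CDKN2B (ENSG00000147883, 22002903 to 22009363) are both read from the reverse strand. The regions around their starts, taken from RefSeq on GRCh38.p14, are shown because the 2 genes share their pattern over the models, together with that of MTAP, the nearest tested protein-coding gene on the other side of CDKN2A. Each spans 250 bases before to 50 bases after a start and is written along the gene's strand, with GGGCGG, the core of the GC box, or its reverse complement CCGCCC in capitals. For CDKN2A, the first window is that of the p14ARF start, and the second that of the p16INK4a start.
CDKN2A, chr9:21995275-21995574, reverse strand: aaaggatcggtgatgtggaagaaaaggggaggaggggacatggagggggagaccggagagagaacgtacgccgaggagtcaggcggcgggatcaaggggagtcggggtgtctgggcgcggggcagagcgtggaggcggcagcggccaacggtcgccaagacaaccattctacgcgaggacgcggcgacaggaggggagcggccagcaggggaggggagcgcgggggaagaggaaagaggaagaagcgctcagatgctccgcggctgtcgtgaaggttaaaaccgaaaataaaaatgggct
CDKN2A, chr9:21974808-21975107, reverse strand: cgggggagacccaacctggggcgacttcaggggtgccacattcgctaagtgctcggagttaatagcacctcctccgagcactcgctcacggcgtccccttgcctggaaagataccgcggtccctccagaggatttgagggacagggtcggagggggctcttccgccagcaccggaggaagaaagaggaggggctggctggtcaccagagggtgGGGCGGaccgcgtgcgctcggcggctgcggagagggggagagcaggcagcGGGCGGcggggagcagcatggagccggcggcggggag
CDKN2B, chr9:22009256-22009555, reverse strand: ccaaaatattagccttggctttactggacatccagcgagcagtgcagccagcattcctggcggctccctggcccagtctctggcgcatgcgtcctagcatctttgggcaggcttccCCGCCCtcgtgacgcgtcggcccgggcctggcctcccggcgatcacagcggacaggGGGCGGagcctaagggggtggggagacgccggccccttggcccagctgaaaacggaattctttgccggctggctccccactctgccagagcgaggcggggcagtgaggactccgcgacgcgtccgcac
MTAP, chr9:21802386-21802685, forward strand: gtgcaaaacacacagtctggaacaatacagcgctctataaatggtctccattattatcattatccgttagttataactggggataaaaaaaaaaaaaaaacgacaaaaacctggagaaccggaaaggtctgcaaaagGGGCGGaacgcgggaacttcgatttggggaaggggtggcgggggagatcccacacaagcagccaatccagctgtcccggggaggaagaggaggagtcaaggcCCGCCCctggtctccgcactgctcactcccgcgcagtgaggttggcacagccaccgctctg

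The 4 windows held 28, 26, 25 and 15 CpG dinucleotides in the order shown, and the median over 35116 RefSeq windows of 300 bases was 14. GGGCGG was present 2 times on either strand in each window except that of p14ARF, where these letters were not found. Of all windows, 44.95% held it at least once. RefSeq windows matched 7 of the 8 genes, all but BAP1.

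CDKN2A had no count in any HuCC-A1 tumor. In the 5 HuCC-T1 tumors it had 6727, 4166, 3992, 5118 and 6355 counts, or 215, 144, 149, 181 and 198 CPM, with a mean of 177 ± 30.6 CPM (SD, n = 5), and in EGI-1 tumors it again had no count. CDKN2B had no count in any HuCC-A1 tumor either. Its HuCC-T1 levels were 149, 222, 201, 207 and 238 CPM (mean 203 ± 33.8 CPM, SD, n = 5), and the EGI-1 tumors held 0, 0, 0, 0 and 2 counts. The groups were thus wide apart, with every HuCC-T1 tumor at 144 CPM or more and no other tumor above 0.0512 CPM in either gene. Against a floor of 3 counts over the group, CDKN2A was at least 10891-fold higher in HuCC-T1 than in the EGI-1 model (adjusted p = 8.64e-10) and at least 8909-fold lower in HuCC-A1 than in HuCC-T1 tumors (adjusted p = 7.28e-10). CDKN2B was 18575-fold higher in HuCC-T1 than in the EGI-1 model, with an exact 95% counting interval from 5142 to 153384 that rests on those 2 counts (adjusted p = 1.29e-11). In HuCC-A1 against HuCC-T1 tumors, CDKN2B was at least 10129.8-fold lower (adjusted p = 1.01e-11). No fold is given between HuCC-A1 and EGI-1, where both genes were at or under the floor. Such intervals and floors cover counting error only. Both genes entered the test through HuCC-T1 alone, so that they had to differ. Of the 2194 genes that averaged at least 100 CPM in HuCC-T1, 0.501% had at most 3 counts over HuCC-A1 tumors and 0.501% at most 3 over EGI-1 tumors. A share of 0.228% had at most 3 counts over HuCC-A1 and at most 3 over EGI-1 tumors at once, namely 5 genes, ATP10A, CXCL5, TMEM47, CDKN2A and CDKN2B.

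**Figure D1:**
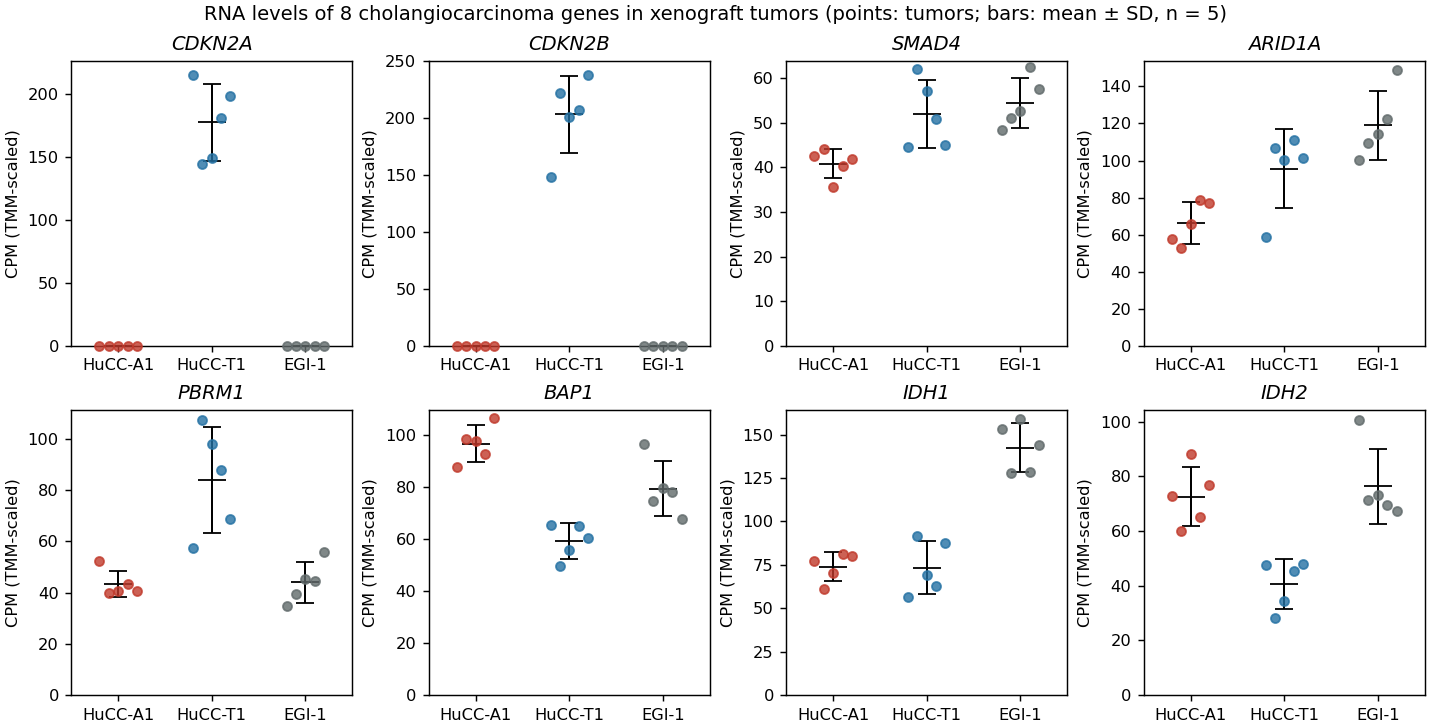
RNA levels of the 8 genes in CPM (y axes, linear, from 0) in the 5 tumors of each model (x axes), with points for tumors and bars for the mean ± SD. CDKN2A and CDKN2B lie at or next to 0 in HuCC-A1 and EGI-1 and at 144 to 238 CPM in HuCC-T1, while each of the other 6 genes has between 28.0 and 159 CPM in every tumor.

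Among HuCC-T1 tumors, the 2 inhibitors did not move in step. Tumor 1 had the highest CDKN2A and the lowest CDKN2B level, with 1.45 CDKN2A counts per CDKN2B count, against 0.649 to 0.871 in the other 4. Gene-level counts do not separate p16INK4a from p14ARF. The 2 genes are paralogs. Of the 4051 distinct 50-base stretches in CDKN2B transcripts, 31 (0.765%) also occur in those of CDKN2A. How reads from such stretches were assigned is not given, so the levels of both genes are uncertain to that extent.

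Of the exon bases of CDKN2A, 7.88% also lie in exons of the antisense gene CDKN2B-AS1 (ANRIL), and those of CDKN2B in none of another gene. CDKN2B-AS1 had 28, 0, 3, 2 and 0 counts in HuCC-A1 tumors, 366, 372, 426, 337 and 243 counts in HuCC-T1 tumors, and none in any EGI-1 tumor.

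The absence reached beyond the inhibitors, and over different stretches in HuCC-A1 and EGI-1 tumors. MTAP, an enzyme of methionine salvage encoded about 30.1 kb from CDKN2A, had 25.4, 38.3, 27.3, 32.8 and 35.5 CPM in the HuCC-A1 tumors, 187, 194, 184, 154 and 230 CPM in HuCC-T1 tumors, and 0, 0, 0, 2 and 0 counts in EGI-1 tumors. So MTAP RNA was present in all HuCC-A1 tumors, which had no CDKN2A or CDKN2B count, and nearly absent from EGI-1 tumors. MTAP was 2863-fold higher in HuCC-A1 than in the EGI-1 model (exact 95% counting interval 792 to 23647, resting on 2 counts). On the other side, the transcription factor gene DMRTA1, 437 kb from CDKN2B, had 18.7 ± 4.07 CPM in HuCC-A1, 13.1 ± 2.89 CPM in HuCC-T1 and 0 counts in EGI-1 tumors. CDKN2A-DT, next to CDKN2A on the other strand, had 141 counts over HuCC-T1 tumors and 0 over each of the other models. AL359922.3, which lies within MTAP, had 419 and likewise 0. UBA52P6, a processed pseudogene next to CDKN2B, had 89 counts over HuCC-T1 tumors and 0 over each of the others. The long noncoding AL157937.1, farther out, had 262, 20 and 0 counts over HuCC-A1, HuCC-T1 and EGI-1 tumors. AL359922.1, annotated across MTAP, CDKN2A and CDKN2B, had no count in any tumor, and the intronic AL449423.1, which starts near CDKN2A on the other strand, had 33 counts over HuCC-T1 tumors and 0 over each of the others.

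A wider window of 3 Mb on each side of CDKN2A was examined after these values were seen. It held 105 genes of the table, 58 of them with at least 10 counts over the 15 tumors. Of these 58, 11 had at most 3 counts over HuCC-A1, 6 over HuCC-T1 and 26 over EGI-1 tumors. In EGI-1 tumors, 19 of them in a row, from MIR31 to AL391117.1, had at most 3 counts each, bounded by IFNE with 137 counts and the processed pseudogene CLIC4P1 with 15. The gene after CLIC4P1, AC017067.1, again had none in EGI-1 tumors, beside 193 counts over HuCC-A1 and 109 over HuCC-T1 tumors. At the other bound, IFNE averaged only 0.731 CPM in EGI-1, beside 11.8 CPM in HuCC-A1 and 70.0 CPM in HuCC-T1 tumors. Next to it, MIR31HG averaged 0.280, 9.21 and 25.8 CPM in the same order. MIR31 and RF00157, at that end of the row, had 1 and 0 counts over HuCC-A1 tumors as well. In HuCC-A1 tumors, the row through CDKN2A was 4 genes long, from AL359922.3 to CDKN2A, followed by CDKN2B-AS1 with 33 counts, and the next 3 genes, AL449423.1, CDKN2B and UBA52P6, had none. No such row ran through CDKN2A in HuCC-T1 tumors. Farther away, KLHL9, an adaptor of an E3 ubiquitin ligase, had 67.7 ± 8.80 CPM in HuCC-A1, 70.6 ± 11.2 CPM in HuCC-T1 and 41.7 ± 8.57 CPM in EGI-1 tumors (SD, n = 5 each). FOCAD had 52.9 ± 7.40, 65.1 ± 5.72 and 46.2 ± 5.62 CPM in the same order. The names of the bounding genes depend on the 10-count limit. DNA copy number and methylation were not measured in these samples, so the counts give the extent of the absent RNA only.

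**Figure D2:**
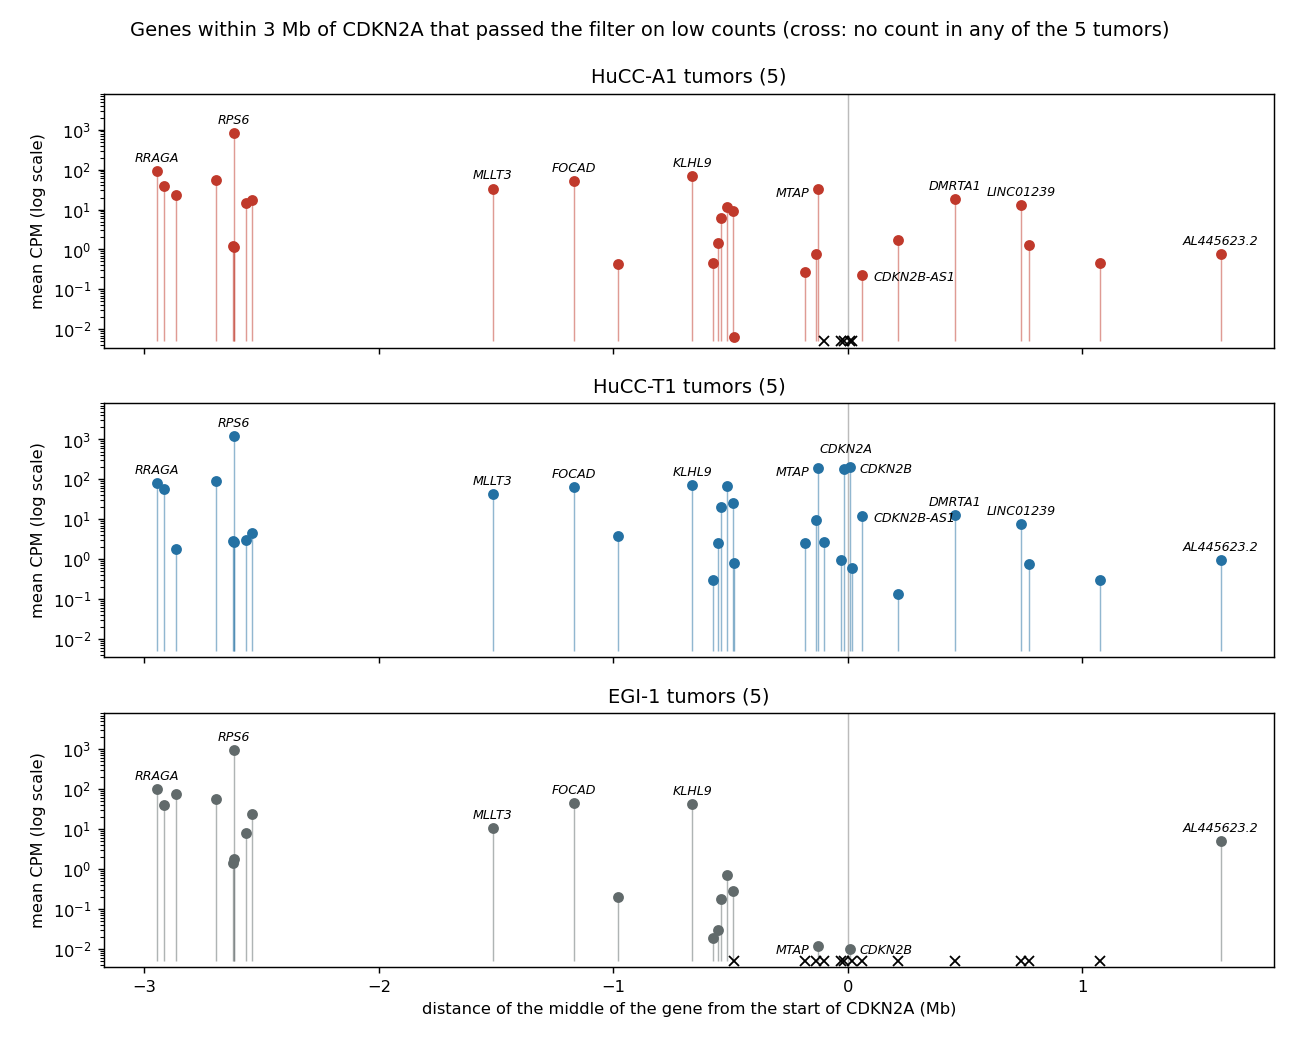
Mean CPM (y axis, log scale) of tested genes around CDKN2A against the distance of each gene's middle from the CDKN2A start in Mb (x axis), for the 5 tumors of each model. Crosses mark genes with no count, which cluster around CDKN2A in HuCC-A1 and run from MIR31 to AL391117.1 in EGI-1, where only MTAP and CDKN2B have 2 counts each, while every gene shown has counts in HuCC-T1.

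The kinases that the CDKN2 inhibitors bind, and RB1 downstream of them, had RNA in all 3 models. CDK6, a kinase that both inhibitors bind, averaged 119 ± 21.4 CPM over HuCC-A1, 645 ± 109 CPM over HuCC-T1 and 84.4 ± 8.19 CPM over EGI-1 tumors, so that the model with the inhibitors' RNA was also the one with most CDK6 RNA (log2 fold change 2.93, standard error [SE] 0.16, adjusted p = 2.52e-10, HuCC-T1 against EGI-1). CDK4 had 63.1, 41.5 and 59.3 CPM in HuCC-A1, HuCC-T1 and EGI-1 tumors, and its log2 fold change of HuCC-T1 against EGI-1 was -0.51 (adjusted p = 0.0439). RB1, the retinoblastoma gene, had 56.2, 81.8 and 39.9 CPM, and was higher in HuCC-T1 than in the EGI-1 model (1.04, adjusted p = 0.000306). CDK4 and RB1 were named for their role, after their values were seen. Of 23 genes of the CDK4/6 and RB axis, 7 had higher and 6 lower RNA, and 10 missed the threshold in HuCC-A1 against EGI-1 tumors, with a median log2 fold change of 0.26 beside 0.06 over all genes tested. In HuCC-T1 against EGI-1, 5 were higher and 13 lower (median -0.51 beside 0.06), and in HuCC-A1 against HuCC-T1, 13 were higher and 4 lower (median 0.59 beside 0.05). The shares called were 56.5%, 78.3% and 73.9%, where 55.4%, 52.3% and 56.3% of all genes tested were called in these comparisons, so that the first is near that of all genes. No test was run on any list. The D-type cyclin CCND2 changed most among these 23 genes in both comparisons of HuCC-A1. It had 93.6 ± 14.9 CPM in the HuCC-A1 tumors, 0.389 ± 0.643 CPM in HuCC-T1 and 0.0845 ± 0.173 CPM in the EGI-1 model (log2 fold change 10.16 against EGI-1, adjusted p = 4.33e-08). With 60 counts over HuCC-T1 and 14 over EGI-1 tumors, CCND2 entered the test through HuCC-A1, so that it had to differ. Its fold rests on those few counts. The CDK inhibitor CDKN1C (p57) showed the opposite order, with 0.684 ± 0.200 CPM in HuCC-A1, 20.4 ± 5.49 CPM in HuCC-T1 and 39.5 ± 12.8 CPM in the EGI-1 model (log2 fold change -5.82 for HuCC-A1 against EGI-1, adjusted p = 1.17e-10). CCNE1, the cyclin of CDK2, was lower in HuCC-T1 than in the EGI-1 model (4.60 ± 2.55 and 18.3 ± 4.39 CPM, adjusted p = 2.86e-05).

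SMAD4 RNA was present in every tumor and lowest in the HuCC-A1 model. SMAD4 (ENSG00000141646, chromosome 18, 51028394 to 51085045, forward strand) had 42.5, 44.04, 35.6, 40.2 and 41.9 CPM in the HuCC-A1 tumors, 44.5, 62.0, 57.0, 50.8 and 44.9 CPM in HuCC-T1 tumors, against 48.5, 51.0, 52.5, 62.5 and 57.6 CPM in the EGI-1 tumors. Every HuCC-A1 tumor was below every tumor of the other models, if narrowly so, while HuCC-T1 and EGI-1 tumors overlapped. Its log2 fold change was -0.41 (SE 0.13, adjusted p = 0.0101) in HuCC-A1 against EGI-1, -0.35 (SE 0.13, adjusted p = 0.0276) in HuCC-A1 against HuCC-T1, and -0.07 (95% interval -0.34 to 0.20, adjusted p = 0.669) in HuCC-T1 against EGI-1. The difference of HuCC-A1 from HuCC-T1 did not pass the test without HuCC-T1 tumor 2 (adjusted p = 0.0622) or tumor 3 (0.0525). A gene on the same strand, AC091551.1, covers 7.37% of the exon bases of SMAD4 and had no count in any tumor. How reads in the shared bases were assigned is not given, so this lack of counts does not show that SMAD4 lost no reads there.

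Of 24 other genes of SMAD signaling, 6 had higher and 12 lower RNA, and 6 missed the threshold in HuCC-A1 against EGI-1 tumors (median log2 fold change -0.32 beside 0.06 over all genes). In HuCC-A1 against HuCC-T1, 4 were higher and 14 lower (median -0.51 beside 0.05), and in HuCC-T1 against EGI-1, 7 were higher, 4 lower and 13 not past the test (median 0.17 beside 0.06). Over all genes, 29.4% were higher and 26.0% lower in HuCC-A1 against EGI-1, 29.1% and 27.2% in HuCC-A1 against HuCC-T1, and 27.3% and 25.0% in HuCC-T1 against EGI-1. The 7 higher genes became 4 without EGI-1 tumor 1 or without HuCC-T1 tumor 3. SMAD6, an inhibitory SMAD, had 9.52 ± 2.89 CPM in HuCC-A1, 34.6 ± 9.32 CPM in HuCC-T1 and 77.3 ± 24.8 CPM in the EGI-1 model (log2 fold change -3.02 in HuCC-A1 against EGI-1, adjusted p = 6.43e-08). The ubiquitin ligase SMURF2, which acts on SMADs and their receptors, averaged 29.6 ± 5.14 CPM in HuCC-A1 and 175 ± 38.4 CPM in HuCC-T1 tumors (-2.56, adjusted p = 1.79e-09). BMPR1B, a type I BMP receptor, was higher in both intrahepatic models, with 22.4 ± 6.29 CPM in HuCC-A1 and 21.3 ± 9.86 CPM in HuCC-T1, against 0.689 ± 0.397 CPM in the EGI-1 model (log2 fold changes 5.00 and 4.93). TGIF1, a corepressor of SMAD complexes, was 1.77 log2 units higher in HuCC-A1 than in HuCC-T1 tumors (118 ± 20.1 and 34.5 ± 7.65 CPM, adjusted p = 6.21e-08).

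ARID1A and PBRM1 differed between models in different ways. ARID1A (ENSG00000117713, chromosome 1, 26693236 to 26782110, forward strand), the DNA-binding subunit of the canonical BAF complex, had 57.8, 52.5, 65.6, 78.7 and 77.0 CPM in the HuCC-A1 tumors, 58.7, 106.9, 100.3, 111 and 101 CPM in HuCC-T1 tumors, against 100.3, 109, 114, 122 and 149 CPM in the EGI-1 tumors. HuCC-A1 tumors were all below EGI-1 tumors, and HuCC-T1 tumor 1 fell among the HuCC-A1 tumors while the other 4 were close to the lower EGI-1 values. ARID1A was lower in HuCC-A1 than in the EGI-1 model (log2 fold change -0.84, SE 0.17, adjusted p = 0.000517) and than in HuCC-T1 tumors (-0.53, SE 0.17, adjusted p = 0.0152). In HuCC-T1 against EGI-1, the log2 fold change was -0.32 (95% interval -0.68 to 0.05, adjusted p = 0.136), and without HuCC-T1 tumor 1 it was -0.15 (adjusted p = 0.406). Without that tumor, the log2 fold change of HuCC-A1 against HuCC-T1 was -0.72 (adjusted p = 0.000423). An antisense gene, AL512408.1, covers 2.40% of the exon bases of ARID1A and had at most 2.30 CPM in any tumor.

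PBRM1 (ENSG00000163939, chromosome 3, 52545352 to 52685917, reverse strand), the bromodomain subunit of the PBAF complex, had 52.3, 39.6, 40.7, 43.4 and 40.8 CPM in the HuCC-A1 tumors, 57.3, 107.6, 98.1, 87.8 and 68.8 CPM in HuCC-T1 tumors, against 34.6, 39.6, 45.2, 44.4 and 55.8 CPM in the EGI-1 tumors. All HuCC-T1 tumors were above all others, with tumor 1 nearest to them. PBRM1 was higher in HuCC-T1 than in the EGI-1 model (log2 fold change 0.93, SE 0.17, adjusted p = 0.000222) and lower in HuCC-A1 than in HuCC-T1 tumors (-0.95, SE 0.17, adjusted p = 0.000158). Between HuCC-A1 and EGI-1 its log2 fold change was -0.02 (95% interval -0.38 to 0.34, adjusted p = 0.935). SMIM4 covers 1.51% of its exon bases on the opposite strand, at 2.43 to 7.98 CPM in any tumor.

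Within a tumor, the ratio of ARID1A to PBRM1 counts does not depend on the scaling of library totals. It averaged 1.55 ± 0.331 in HuCC-A1, 1.16 ± 0.207 in HuCC-T1 and 2.72 ± 0.136 in EGI-1 tumors (SD, n = 5 each). All EGI-1 tumors, at 2.53 to 2.90, were above all others, the highest of which was a HuCC-A1 tumor at 1.89. The ratio was 0.559-fold as high in HuCC-A1 and 0.420-fold as high in HuCC-T1 as in EGI-1 tumors (two-sided exact permutation tests, p = 0.00794 each, the smallest that 5 against 5 tumors allow, adjusted p = 0.0159 over 6 tests of ratios). HuCC-A1 and HuCC-T1 ratios overlapped (1.33-fold, exact p = 0.0635, adjusted p = 0.0762), and passed the test without HuCC-A1 tumor 1 (adjusted p = 0.0476) or HuCC-T1 tumor 5 (adjusted p = 0.0381).

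Of 27 tested SWI/SNF subunits of 28, ARID1A and PBRM1 not among them, 11 had higher and 3 lower RNA, and 13 missed the threshold in HuCC-A1 against EGI-1 tumors (median log2 fold change 0.34 beside 0.06 over all genes). In HuCC-A1 against HuCC-T1, 16 were higher and 2 lower (median 0.38 beside 0.05), and in HuCC-T1 against EGI-1, 5 were higher and 12 lower (median -0.19 beside 0.06). The shares called were 51.9%, 66.7% and 63.0% in that order, beside 55.4%, 56.3% and 52.3% of all genes. ACTL6B, the neuronal actin-like subunit, had 6 counts in all and was not tested. BCL7A, a small subunit of the BAF complexes, had 105 ± 18.7 CPM in HuCC-A1, 12.2 ± 1.01 CPM in HuCC-T1 and 21.5 ± 1.56 CPM in the EGI-1 model (log2 fold changes 3.11 against HuCC-T1 and 2.28 against EGI-1). SMARCD2, an accessory subunit, was lower in HuCC-A1 than in the EGI-1 model (89.6 ± 9.49 and 159 ± 10.1 CPM, adjusted p = 0.000109). The lymphoid and neural subunit BCL11B had 1.07 ± 1.05 CPM in HuCC-A1, 10.9 ± 6.95 CPM in HuCC-T1 and 0.538 ± 0.266 CPM in EGI-1 tumors, and BCL7C was lower in HuCC-T1 than in the EGI-1 model (15.1 ± 8.96 and 54.3 ± 13.4 CPM, adjusted p = 0.000141).

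BAP1 was lowest in HuCC-T1 tumors. BAP1 (ENSG00000163930, chromosome 3, 52401013 to 52410350, reverse strand), on the same chromosome arm as PBRM1, had 87.9, 98.8, 97.8, 92.8 and 106.9 CPM in the HuCC-A1 tumors, 65.6, 49.5, 56.0, 65.3 and 60.3 CPM in HuCC-T1 tumors, against 96.6, 74.9, 79.9, 78.1 and 68.0 CPM in the EGI-1 tumors. HuCC-T1 tumors were all below the others, and 1 EGI-1 tumor, number 1, lay among the HuCC-A1 tumors. The log2 fold change was 0.71 (SE 0.12, adjusted p = 9.91e-05) in HuCC-A1 against HuCC-T1 and -0.42 (SE 0.12, adjusted p = 0.00758) in HuCC-T1 against EGI-1. In HuCC-A1 against EGI-1 it was 0.28 (95% interval 0.03 to 0.54), with an adjusted p = 0.0553 that did not pass the test. It passed without EGI-1 tumor 1 (0.34, adjusted p = 0.0243) and under 5 other settings (adjusted p between 0.0315 and 0.0495). Under the other 16 of 22 alternatives BAP1 did not pass, with an adjusted p up to 0.295. No exon of another annotated gene overlaps those of BAP1. Of these neighbors on 3p, PBRM1 was thus highest and BAP1 lowest in HuCC-T1 tumors.

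Of 20 tested genes of 21 of the BAP1 complex and of PRC1, the complex that places the ubiquitin BAP1 removes, 5 were higher and 7 lower in HuCC-A1 against EGI-1 tumors (median log2 fold change -0.01 beside 0.06), 8 and 6 in HuCC-T1 against EGI-1 (median -0.03 beside 0.06), and 4 and 7 in HuCC-A1 against HuCC-T1 (median -0.16 beside 0.05). The shares called, 60.0%, 70.0% and 55.0%, stand beside 55.4%, 52.3% and 56.3% of all genes, and the first and the last are near them. ASXL3, a cofactor of BAP1, had 23 counts in all and was not tested. OGT, the transferase of O-linked N-acetylglucosamine and a partner of BAP1, had 180 ± 27.1 CPM in HuCC-A1, 512 ± 136 CPM in HuCC-T1 and 96.9 ± 13.6 CPM in the EGI-1 model (log2 fold change 2.40 in HuCC-T1 against EGI-1, adjusted p = 2.22e-08). The forkhead partner FOXK1 was higher in HuCC-A1 than in the EGI-1 model (114 ± 36.9 and 44.7 ± 6.07 CPM, adjusted p = 1.38e-05), while FOXK2 was lower in HuCC-T1 than in the EGI-1 model (69.4 ± 9.98 and 129 ± 8.31 CPM, adjusted p = 9.19e-06). PCGF3, a subunit of variant PRC1, was lower in HuCC-A1 than in the EGI-1 model (63.2 ± 7.27 and 163 ± 12.7 CPM, adjusted p = 2.28e-07). MBD6, another protein of BAP1 complexes, was 0.99 log2 units higher in HuCC-A1 than in HuCC-T1 tumors (adjusted p = 0.000110).

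IDH1 was lower in both intrahepatic models than in the extrahepatic EGI-1 model, and IDH2 was lowest in HuCC-T1. IDH1 (ENSG00000138413, chromosome 2, 208236227 to 208266074, reverse strand) had 77.4, 60.9, 70.3, 81.2 and 80.0 CPM in the HuCC-A1 tumors, 56.2, 91.5, 69.2, 62.6 and 87.7 CPM in HuCC-T1 tumors, against 153, 128, 159, 129 and 144 CPM in the EGI-1 tumors. The lowest EGI-1 tumor was above the highest of the other 10. Its log2 fold change was -0.95 (SE 0.15, adjusted p = 3.03e-05) in HuCC-A1 and -0.96 (SE 0.15, adjusted p = 3.31e-05) in HuCC-T1 against EGI-1, 2 comparisons that share the EGI-1 tumors. Between HuCC-A1 and HuCC-T1 it was 0.01 (95% interval -0.29 to 0.32, adjusted p = 0.957), a direction that turned under several settings. IDH1-AS1 covers 1.99% of the exon bases of IDH1 on the opposite strand, with at most 0.907 CPM in any tumor.

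IDH2 (ENSG00000182054, chromosome 15, 90083045 to 90102504, reverse strand) had 73.0, 60.0, 88.2, 65.1 and 77.0 CPM in the HuCC-A1 tumors, 47.4, 28.0, 34.2, 45.5 and 48.0 CPM in HuCC-T1 tumors, against 100.6, 71.5, 73.3, 69.5 and 67.4 CPM in the EGI-1 tumors. HuCC-T1 tumors were all below the others, and the other models overlapped. IDH2 was higher in HuCC-A1 than in HuCC-T1 tumors (log2 fold change 0.84, SE 0.17, adjusted p = 0.000427) and lower in HuCC-T1 than in the EGI-1 model (-0.91, SE 0.17, adjusted p = 0.000232). In HuCC-A1 against EGI-1 its log2 fold change was -0.07 (95% interval -0.43 to 0.28, adjusted p = 0.731), and without EGI-1 tumor 1 it was 0.03 (adjusted p = 0.911). No exon of another annotated gene overlaps those of IDH2.

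**Figure D3:**
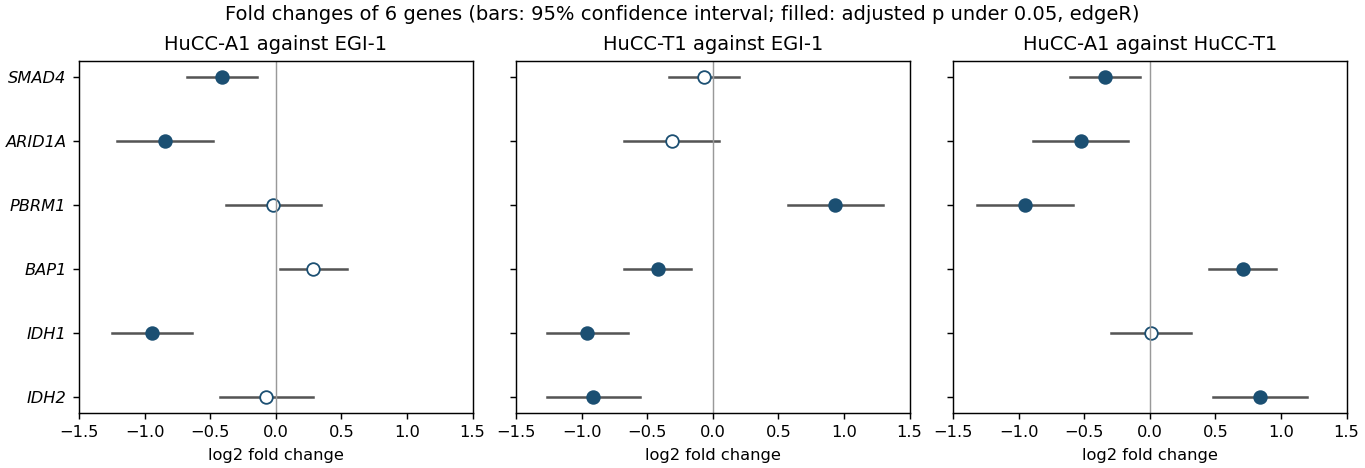
Log2 fold changes (x axes) of the 6 genes with RNA in all models (rows) in the 3 comparisons, with 95% confidence intervals, filled where the adjusted p from edgeR was under 0.05. IDH1 lies at -0.95 and -0.96 in both comparisons with EGI-1 and at 0.01 between the intrahepatic models, whereas PBRM1 lies at 0.93 in HuCC-T1 and at -0.02 in HuCC-A1 against EGI-1.

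The ratio of IDH1 to IDH2 counts within a tumor was 1.06, 1.02, 0.798, 1.25 and 1.04 in HuCC-A1 tumors, 1.19, 3.26, 2.02, 1.37 and 1.83 in HuCC-T1 tumors, and 1.52, 1.79, 2.17, 1.85 and 2.14 in EGI-1 tumors. HuCC-A1 tumors thus had about equal counts of both enzymes' RNA, EGI-1 tumors had more IDH1 counts in every tumor, and HuCC-T1 tumors spread most. The ratio was 0.544-fold as high in HuCC-A1 as in EGI-1 tumors (exact permutation p = 0.00794, adjusted p = 0.0159) and 0.563-fold as high in HuCC-A1 as in HuCC-T1 tumors (exact permutation p = 0.0159, adjusted p = 0.0238). Without HuCC-A1 tumor 2, 3 or 5, the difference from HuCC-T1 had an adjusted p = 0.0595 in the exact test. In HuCC-T1 against EGI-1 tumors, the ratio was 0.966-fold as high (exact permutation p = 0.833).

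**Figure D4:**
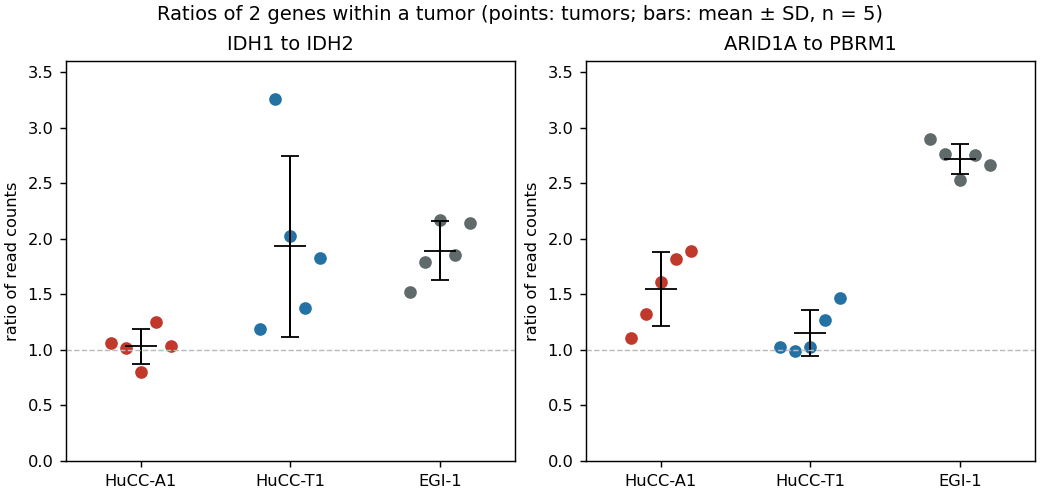
Ratios of read counts of IDH1 to IDH2 and of ARID1A to PBRM1 (y axes, linear, from 0) in the 5 tumors of each model, with bars for the mean ± SD and a dashed line at 1. IDH1 to IDH2 averages 1.03 in HuCC-A1, 1.93 in HuCC-T1 and 1.89 in EGI-1, and ARID1A to PBRM1 averages 1.55, 1.16 and 2.72.

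Enzymes around isocitrate and 2-oxoglutarate included several with larger differences than IDH1 and IDH2. Of 28 genes, 7 had higher and 10 lower RNA, and 11 missed the threshold in HuCC-A1 against EGI-1 tumors (median log2 fold change -0.11 beside 0.06). In HuCC-T1 against EGI-1, 5 were higher and 8 lower (median -0.17 beside 0.06), and in HuCC-A1 against HuCC-T1, 12 were higher and 6 lower (median 0.22 beside 0.05). With 60.7%, 46.4% and 64.3% called, beside 55.4%, 52.3% and 56.3% of all genes, these counts lay within 10 percentage points of those of all genes. The 5 higher genes became 3 without EGI-1 tumor 2 or 3 and 2 without EGI-1 tumor 5. DLD, the shared dehydrogenase subunit of the 2-oxoglutarate and pyruvate dehydrogenase complexes, was higher in HuCC-A1 than in the EGI-1 model (137 ± 8.76 and 53.7 ± 3.81 CPM, adjusted p = 4.33e-07). SDHA, the flavoprotein of succinate dehydrogenase, had 421 ± 52.0 CPM in HuCC-A1, 140.1 ± 41.3 CPM in HuCC-T1 and 237 ± 33.6 CPM in EGI-1 tumors, though sequence copies of SDHA in the genome can share its reads.

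Over the 8 genes, 3 were called in HuCC-A1 against EGI-1 tumors, all lower (SMAD4, ARID1A and IDH1), where 55.4% of all genes tested were called, 29.4% as higher and 26.0% as lower. The same 3 had no overlap between the models, as had 44.6% of all genes. In HuCC-T1 against EGI-1, 6 were called, with CDKN2A, CDKN2B and PBRM1 higher and BAP1, IDH1 and IDH2 lower, against 52.3% of all genes (27.3% higher, 25.0% lower). These 6 did not overlap, as 37.7% of all genes did not. In HuCC-A1 against HuCC-T1, 7 were called, with BAP1 and IDH2 higher and CDKN2A, CDKN2B, SMAD4, ARID1A and PBRM1 lower, against 56.3% of all genes (29.1% higher, 27.2% lower). All but ARID1A did not overlap, as 38.8% of all genes did not. CDKN2A and CDKN2B passed the filter through HuCC-T1 alone, which fixed their calls in the comparisons with HuCC-T1, and are not to be read against these shares. With this few genes and such a background, these shares say nothing particular about the 8 genes as a set. What set CDKN2A and CDKN2B apart was size, since no called difference of the other 6 genes exceeded 0.96 log2 units in either direction.

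Levels of different genes can be ranked only per exon length, as CPM per kilobase of merged exons. That length merges the exons of all annotated transcripts, whichever were expressed, so the order depends on this choice. On that scale, HuCC-T1 tumors had most CDKN2B (50.1 ± 8.34) and CDKN2A (41.0 ± 7.07), followed by IDH1 (15.6 ± 3.28), IDH2 (14.4 ± 3.20), BAP1 (11.7 ± 1.34), PBRM1 (8.69 ± 2.14), ARID1A (6.01 ± 1.33) and SMAD4 (3.95 ± 0.581). In HuCC-A1 tumors the order was IDH2 (25.8 ± 3.88), BAP1 (19.2 ± 1.41), IDH1 (15.7 ± 1.78), PBRM1 (4.49 ± 0.537), ARID1A (4.16 ± 0.724) and SMAD4 (3.11 ± 0.248). In EGI-1 tumors it was IDH1 (30.2 ± 2.98), IDH2 (27.2 ± 4.87), BAP1 (15.7 ± 2.10), ARID1A (7.47 ± 1.16), PBRM1 (4.55 ± 0.817) and SMAD4 (4.15 ± 0.426), each as CPM per kilobase (SD, n = 5). Neighbors in these orders whose means differed by less than the larger of their SDs were IDH1 and IDH2 in HuCC-T1 and EGI-1, IDH2 and BAP1 in HuCC-T1, PBRM1 and ARID1A in HuCC-A1, and PBRM1 and SMAD4 in EGI-1.

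Of 30 other genes recurrently mutated in CCA, 7 had higher and 14 lower RNA, and 9 missed the threshold in HuCC-A1 against EGI-1 tumors (median log2 fold change -0.14 beside 0.06), 14 were higher and 8 lower in HuCC-T1 against EGI-1 (median 0.22 beside 0.06), and 9 were higher and 14 lower in HuCC-A1 against HuCC-T1 (median -0.20 beside 0.05). The shares called were 70.0%, 73.3% and 76.7%, beside 55.4%, 52.3% and 56.3% of all genes. RNF43, a ubiquitin ligase that removes Wnt receptors, had 10.4 ± 1.104 CPM in the HuCC-A1 tumors, 4 counts over all HuCC-T1 tumors, and 60.3 ± 8.91 CPM in EGI-1 tumors, so that a gene near absence in HuCC-T1 stood beside CDKN2A and CDKN2B near absence in the other models. FGFR2, the receptor involved in fusions in intrahepatic CCA, had 35.3 ± 5.06 CPM in HuCC-A1, 22.2 ± 3.34 CPM in HuCC-T1 and 7.16 ± 1.41 CPM in the EGI-1 model (log2 fold changes 2.30 and 1.63 against EGI-1). ATM, a kinase of the DNA damage response, averaged 19.5 ± 1.20 CPM in HuCC-A1 and 141 ± 27.1 CPM in HuCC-T1 tumors (log2 fold change -2.86, adjusted p = 6.58e-10).

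**Figure D5:**
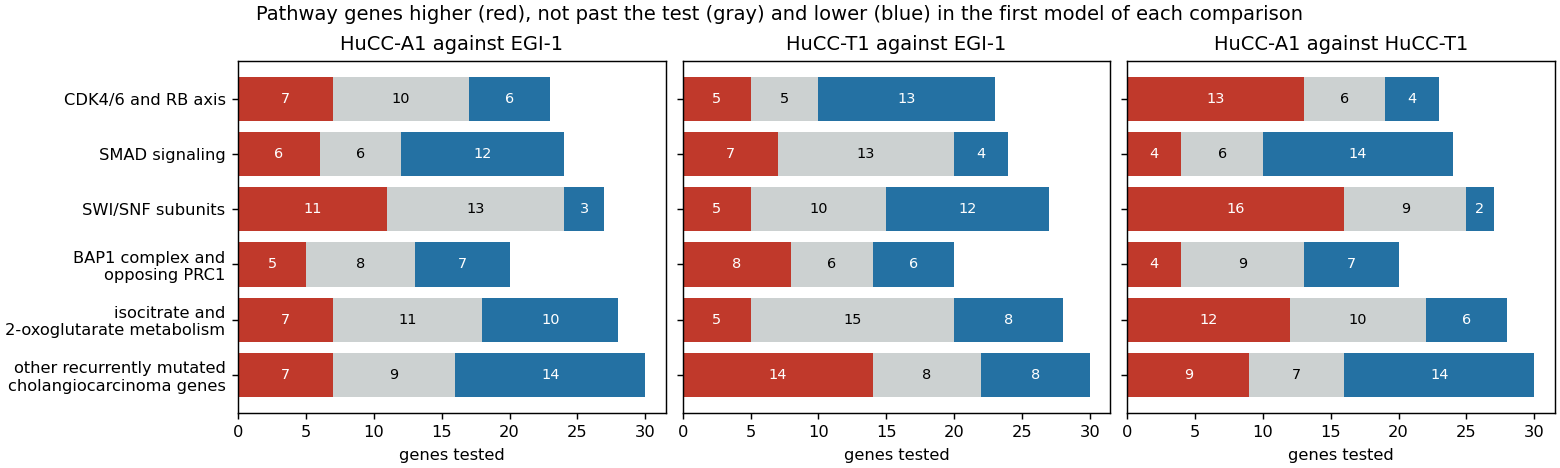
Numbers of tested genes (x axes) of 6 pathway lists (rows) that were higher, not past the test or lower in the first-named model of each of the 3 comparisons. SWI/SNF subunits have 11 higher and 3 lower in HuCC-A1 against EGI-1 and 16 higher and 2 lower in HuCC-A1 against HuCC-T1, and SMAD signaling has 6 and 4 higher and 12 and 14 lower, where 29.4% and 29.1% of all genes were higher and 26.0% and 27.2% lower. Differences between lists were not tested.

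Among 14875 other protein-coding genes tested, those with the pattern most like each of the 8 over the 15 tumors were named by the Pearson correlation of log2(CPM + 1). Since the points fall into 3 models, these values describe mostly the order of the models and carry no test. ATP10A, a phospholipid-transporting ATPase, came first for CDKN2A and for CDKN2B (r = 0.999 each), with 144 CPM in HuCC-T1 tumors and 3 and 2 counts over HuCC-A1 and EGI-1 tumors, and the 2 inhibitors came next for each other (0.998). For SMAD4 they were the deubiquitinase USP15 (0.9501) and ARHGAP21 (0.931), for ARID1A FAM83B (0.955), and for PBRM1 the histone methyltransferase NSD3 (0.981) and BRWD3 (0.981). NUDT16L1 (0.973) and SLC35A4 (0.971) were most like BAP1, IDI1, an enzyme of isoprenoid synthesis, (0.963) and the desmosomal cadherin DSC2 (0.959) most like IDH1, and the augmin subunit HAUS5 (0.966) and IRF2BP1 (0.958) most like IDH2.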

How the data were processed

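The 15 tumors, all of vehicle-treated mice, were grouped by the cell line named in the sample labels, 5 per model. Per the submitters' processing notes, reads were handled with CASAVA, aligned to GRCh38 with HISAT2 2.0.5 and assigned to genes with featureCounts 1.5.0-p3. The deposited values are raw counts per gene, as the authors left them. The kit was directional. How strand was set in counting, which annotation was used, and whether mouse reads were removed is not given in the sources used here. These 8 genes, the gene lists and the tests were chosen with earlier results of these data known.

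All 58735 identifiers matched GENCODE release 29, used for symbols, coordinates and exon overlaps. Of these, 43600 had at least 1 count. The test was that of edgeR 4.0.16 under R 4.3.3 (TMM, filterByExpr on the 3 models, quasi-likelihood F test, 12 residual degrees of freedom), with Benjamini-Hochberg adjustment over 21019 genes and 0.05 as the threshold. A standard error is the fitted log2 fold change over the root of F. Where a group had no counts, a floor of 3 counts over the group gave the bound of a fold. Ratios of counts within a tumor were compared with two-sided exact permutation tests, adjusted over 6. The pipeline was tested on simulated counts with changes planted in HuCC-A1. Against EGI-1, edgeR recovered 3 of 50 changes of 1.5-fold, 17 of 50 of 2-fold and 46 of 50 of 4-fold, with 5 false calls. The simulated counts held only 50 changes of each size among 20436 genes, whereas 55.4% of genes were called in the real HuCC-A1 against EGI-1 comparison. The adjustment is stricter where few genes change, so these recoveries do not give the smallest difference detectable in the real data. A gene that missed the threshold can still differ. For genes with RNA in all models, intervals bound that difference, as from -0.68 to 0.05 log2 units for ARID1A in HuCC-T1 against EGI-1. Figures were drawn with matplotlib 3.10.9.

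Besides the 8 genes, a rule named, for each pathway list and comparison, the called gene of the largest change in each direction whose average log2 CPM reached 1. It also named the 3 nearest tested genes on each side of a gene under 1 CPM in a model, genes that overlap it or start within 1 kb on the other strand, and the 2 genes of most similar pattern. CDK4, RB1, the single marker genes, KLHL9, FOCAD, MIR31HG, RF00157 and the genes that bound the wider window were named after their values were seen. Some items that these rules would name are not reported here.

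As alternatives, the fit was rerun with RLE factors, without the filter, with a minimum of 10 counts in each library, on the 10 tumors compared alone, with replicate number as a block, with DESeq2 1.42.0, with limma-voom (limma 3.58.1) and without each tumor. Ratios were repeated with 0.5 added to each count, and levels over unscaled or RLE-scaled totals. No batch or date is given. No pair of replicates was alike within counting noise (chi-square at least 39.0 per degree of freedom). HuCC-T1 tumor 1 had 132 to 221 against the other HuCC-T1 tumors, and pairs among those others had 40.8 to 143. Whether this bears on the ARID1A, PBRM1 and CDKN2 values of tumor 1 was not tested. Whether the 5 tumors of a model come from separately grown cell batches is not given.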

Additional observations from a re-analysis of the deposited data

Results flagged for a closer look

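In 3 of 27 sets of 5 values, 1 tumor lay far from the other 4 of its model, its gap to the nearest of them exceeding 0.71 of the whole range. Chance flags about 1 set in 20, a rate that does not hold for a set made up mostly of zeros. CDKN2B had 0.0512 CPM (2 counts) in EGI-1 tumor 5 and no count in the other EGI-1 tumors, a pattern that always raises the flag. ARID1A had 58.7 CPM in HuCC-T1 tumor 1 and 100.3 to 111 CPM in the other HuCC-T1 tumors. IDH2 had 100.6 CPM in EGI-1 tumor 1 and 67.4 to 73.3 CPM in the other EGI-1 tumors. For ARID1A and IDH2, values without that tumor are given beside the results, for IDH2 in HuCC-A1 against EGI-1 only. In HuCC-T1 against EGI-1, the log2 fold change of IDH2 ranged from -0.98 to -0.80 when a tumor was left out. For CDKN2B, leaving out EGI-1 tumor 5 leaves no count in either HuCC-A1 or EGI-1.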

How the results depend on the processing

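Of 480 values of the 22 fold changes of the 8 genes under the alternatives, 453 kept their direction and their side of the threshold, and 2, 6 and 19 lost the call, gained it or turned direction. No called fold change turned. The 19 turns were of SMAD4 in HuCC-T1 against EGI-1 (from -0.142 to 0.0172 when a tumor was left out), IDH2 in HuCC-A1 against EGI-1 (from -0.183 to 0.0256 when a tumor was left out), PBRM1 in HuCC-A1 against EGI-1 (0.00464 with at least 10 counts in each library, and from -0.113 to 0.0737 when a tumor was left out) and IDH1 in HuCC-A1 against HuCC-T1 (-0.00914 with RLE factors, -0.0737 without a filter, -0.00902 with DESeq2, -0.0360 with only the 10 tumors, and from -0.13 to 0.0831 when a tumor was left out). The cause of these turns was not tested. BAP1 in HuCC-A1 against EGI-1 passed the test with RLE factors (adjusted p = 0.0495), at least 10 counts in each library (0.0315), DESeq2 (0.0351), limma-voom (0.0460) and only the 10 tumors (0.0476). It also passed without EGI-1 tumor 1 (0.0243), and did not pass under the other 16 of 22 alternatives (adjusted p up to 0.295). The numbers of genes called stayed within 1.5 times in all 66 values, from 8003 to 13397 in HuCC-A1 against EGI-1, from 8064 to 11578 in HuCC-T1 against EGI-1 and from 8215 to 12829 in HuCC-A1 against HuCC-T1. Of the 8 genes, 3 to 4, 4 to 6 and 5 to 7 were called in these comparisons, fewest in the last 2 with at least 10 counts in each library, which leaves CDKN2A and CDKN2B untested. All 396 totals of list genes called stayed within 1.5 times and all 48 mean levels within 1 SD, but counts in 1 direction moved more, as given for SMAD signaling and isocitrate genes in HuCC-T1 against EGI-1, and from 2 to 1 lower SWI/SNF subunits in HuCC-A1 against HuCC-T1 under several settings.

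Same-numbered tumors of different models did not deviate together, with correlations of their deviations from the model means between -0.105 and 0.186, and 4 of 15 correlated best with their own number. With the replicate number as a block, 11377, 10705 and 11554 genes were called in the 3 comparisons in the order above. For the ratios, the block leaves 5 signs to permute, whose smallest p cannot pass the threshold. All 4 called ratio differences, of log2 -0.88 and -0.83 for IDH1 to IDH2 in HuCC-A1 against EGI-1 and against HuCC-T1, and of -0.84 and -1.25 for ARID1A to PBRM1 in HuCC-A1 and HuCC-T1 against EGI-1, then had an adjusted p = 0.075. When a tumor was left out, the difference of IDH1 to IDH2 ranged from -0.98 to -0.62 in HuCC-A1 against HuCC-T1 and from -0.26 to 0.103 in HuCC-T1 against EGI-1, and that of ARID1A to PBRM1 from 0.33 to 0.53 in HuCC-A1 against HuCC-T1.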
